A study of Mus musculus with 9 samples.

Results

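The 10 genes described here encode the AP-1 transcription factors and a few companions that cells switch on early after stimulation: Fos, Fosb, Fosl1, Fosl2, Jun, Junb, Jund, Atf3, Egr1 and Ier3. They were taken by symbol from 19938 genes with a named row in the array table. No threshold on a measured value was used, but the set was proposed with earlier results of these data known. Each of the 10 had 1 row, and all of them were tested, since no filter on dim genes was used.

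The study measured total RNA of immortalized mouse embryonic fibroblasts (MEFs) of ICR background on 9 microarrays, to find genes controlled by HSF1 or RPA1. HSF1 is the transcription factor that drives the heat shock response, and RPA1 is the large subunit of the complex that coats single-stranded DNA. The arrays formed 3 sets of 3. Control cells carried an adenovirus with a scrambled short hairpin RNA (shRNA), and the knockdown cells an adenovirus with an shRNA against HSF1 or with an shRNA against RPA1. In every set the virus was applied for 2 h and the cells were kept for 70 h more at 37 °C in medium with 10% fetal bovine serum, so immortalization, virus and serum were common to all 9 samples. The labels name no heat shock and no serum starvation, and leave unstated if replicate arrays represent separate cultures and how many hairpins were used per target. The p-values therefore measure only the spread between these samples, which may be technical.

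AP-1 is a dimer of proteins with a basic region and a leucine zipper. JUN proteins pair with each other or with FOS proteins, FOS proteins need a JUN partner, and ATF3 joins the same network. Many of these genes are immediate early genes, whose transcription rises within minutes of growth factors, stress or cytokines through MAP kinases without new protein synthesis. In fibroblasts AP-1 is known for its part in serum responses, matrix proteases and cytokine genes.

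Promoter stretches of Fos, Jun, Atf3 and Fosb are shown. Fos, Jun and Atf3 held AP-1 related motifs, and Fosb is shown beside them as a gene called higher under RPA1 shRNA in which none of the motifs searched was found. Junb was also called higher there and held none of these motifs, and its stretch is not printed. Each stretch holds the 120 bases before the RefSeq transcript start on GRCm38.p6, written 5′ to 3′ along the gene's own strand. The stretches are Fos at chr12:85473770-85473889 (plus strand), Jun at chr4:95052223-95052342 (minus), Atf3 at chr1:191183334-191183453 (minus) and Fosb at chr7:19310046-19310165 (minus). Capitals mark TGACGT or its reverse complement in Fos and Atf3, a core shared by cyclic AMP response elements, and TGACATCA in Jun, a form of AP-1 site.
Fos: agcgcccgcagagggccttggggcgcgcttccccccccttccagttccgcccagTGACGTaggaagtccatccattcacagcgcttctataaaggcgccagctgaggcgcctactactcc
Jun: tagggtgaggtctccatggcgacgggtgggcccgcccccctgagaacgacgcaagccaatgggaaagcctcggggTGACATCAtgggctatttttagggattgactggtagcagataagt
Atf3: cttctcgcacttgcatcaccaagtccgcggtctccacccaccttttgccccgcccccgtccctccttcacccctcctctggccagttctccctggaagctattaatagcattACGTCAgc
Fosb: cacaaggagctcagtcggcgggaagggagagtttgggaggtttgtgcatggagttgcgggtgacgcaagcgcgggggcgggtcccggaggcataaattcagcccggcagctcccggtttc

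A window from 250 bases before to 50 bases after the start was searched on both strands for 8 of the 10 genes. Fosl1 and Egr1 were not searched. The AP-1 site TGACTCA was in none of the 8 windows and in 5.2% of 32851 windows of this length, and the full cyclic AMP response element TGACGTCA was in none and in 1.79%. The CArG box, to which serum response factor binds, was in none of the 8 and in 1.63% of all, and a heat shock element of 3 units (GAA and TTC in turn, each NN apart, in either order) in none and in 0.600%. The shorter TGACGT, which is contained in the full element and was added after the windows had been searched, was in Fos at -66 to -61 and in Atf3 at -8 to -3, and in 7.51% of all windows. TGACATCA, added at the same time, was in Jun at -45 to -38 and in 3.62% of all windows. A match is a description of these letters, not of a bound site. Bases outside the windows were not searched, so an absence holds only within them.

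The deposited values are log2 signals, and all levels and differences here are on that scale. Array medians ran from 7.72 to 7.81. The Rpa1 row averaged 2.02 ± 0.04 lower in the RPA1 shRNA arrays than in the control arrays (SE, limma adjusted p = 3.53e-08, n = 3 arrays per group), which is 4.05-fold lower. No such check was made for HSF1 shRNA, since the level of Hsf1 was not analysed here. Of 10 fibroblast markers 7 lay above the median gene, whose signal was 8.39, with Vim at 14.01 in the control arrays. None of 5 endothelial and none of 6 macrophage or blood markers lay above it, with Ptprc at 5.96 and Adgre1 at 5.99, against 2 of 7 epithelial, 1 of 5 muscle and 4 of 5 neural markers. The summed fibroblast markers ranged from 15.51 to 15.54 in control, 15.36 to 15.40 in HSF1 shRNA and 15.07 to 15.16 in RPA1 shRNA arrays, and 4 and 7 of the 10 were called lower under HSF1 and RPA1 shRNA. The summed neural markers ranged from 11.93 to 12.07, 12.29 to 12.33 and 12.51 to 12.57. Of these Nes averaged 11.02, 11.51 and 11.83, while Map2 went the other way (9.20, 9.02 and 8.98). Blood sums ranged from 9.13 to 9.23, 9.36 to 9.39 and 9.41 to 9.45. Muscle sums ranged from 9.98 to 10.04, 10.09 to 10.22 and 10.29 to 10.42. Epithelial and endothelial sums under RPA1 shRNA overlapped the control. The fibroblast, neural, blood and muscle sums moved with the groups in which AP-1 genes changed, and their part in the results was not tested. In cultures measured in bulk, fewer cells that make a transcript and less of it per cell cannot be told apart.

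The third RPA1 shRNA array differed from both others. Over 506 genes chosen from the other arrays its shift from the control was 0.675 of that of its group, while arrays 1 and 2 were at 1.08 and 1.06 over 352 and 335 genes chosen in the same way. Rpa1 itself was as low in array 3 (9.40) as in arrays 1 and 2 (9.42 and 9.34). For each of the 10 genes array 3 lay outside the range of arrays 1 and 2, nearer to the control for Fos, Fosb, Jun, Junb and Jund and farther from it for Fosl1, Atf3 and Ier3. For Egr1 and Fosl2 it lay on the other side of the control. The gap was slight for Jund, at -0.06 from the control mean against -0.15 and -0.07. How often array 3 lies outside over all genes was not counted. For the 10 genes, results are therefore given with all 9 arrays and, where a call changed or a value moved by over 1.5 times, also without array 3. For other genes such values are given only in places.

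Under HSF1 shRNA, 4 of the 10 genes were called higher than in the control (Fosl1, Ier3, Atf3 and Fos) and 1 lower (Egr1), at a limma adjusted p under 0.05 over all 19938 genes. Over all genes 16.1% were called, 9.89% higher and 6.21% lower. Of all calls 61.4% were higher with the values as deposited, and 52.0, 48.1 and 49.4% after quantile, median and loess scaling. The median difference was 0.208 over the 10 genes and 0.036 over all genes. In 8 of the 10 genes all HSF1 shRNA arrays read higher than all control arrays, in 1 lower and in 1 the groups overlapped, against 37.9% of all genes with no overlap (23.9% higher and 13.9% lower). Leaving out HSF1 shRNA array 2 or 3, or control array 1 or 2, left 3 called genes. Calls over all 19938 genes then went from 3210 to between 2023 and 2200. Leaving out RPA1 shRNA array 2 or 3 gave 6 called genes, with 3386 and 4696 calls over all genes.

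Under RPA1 shRNA, 6 of the 10 were called higher (Fosl1, Atf3, Fosb, Fos, Jun and Junb) and 0 lower by limma, where an unadjusted p under 0.05 also gave 0 lower. Over all genes 30.1% were called, 15.4% higher and 14.7% lower. The median difference was 0.458 over the 10 genes and 0.017 over all genes. All RPA1 shRNA arrays read above all control arrays for 7 genes, below for 1, and overlapped for 2, against 41.0% of all genes with no overlap (21.9% higher and 19.2% lower). Without array 3, 7 were called, all higher, and calls over all 19938 genes went from 5998 to 7245.

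Both knockdowns were set against the same control arrays, so their differences are given side by side and not correlated. Set directly against HSF1 shRNA, RPA1 shRNA gave higher calls for 6 of the 10 (Atf3, Fosl1, Jun, Egr1, Fos and Junb) and a lower call for Jund. Over all genes 24.4% were called here, 9.71% higher and 14.7% lower, and higher calls were 39.8% of all calls with the values as deposited and 52.4% after median scaling. The median difference was 0.358 over the 10 and -0.020 over all genes. RPA1 shRNA arrays were all above HSF1 shRNA arrays for 6 genes and all below for 1, against 34.5% of genes with no overlap (14.1% higher and 20.5% lower). Without RPA1 shRNA array 3 all 10 were called, 7 higher and 3 lower, and calls over all 19938 genes went from 4863 to 6539. Fosl1, Atf3 and Fos were called higher under both shRNAs and higher still under RPA1 shRNA than under HSF1 shRNA, a pattern held by 248 genes or 1.24% of all. Fosl2 was called in none of the comparisons, like 59.8% of all genes.

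**Figure D1:**
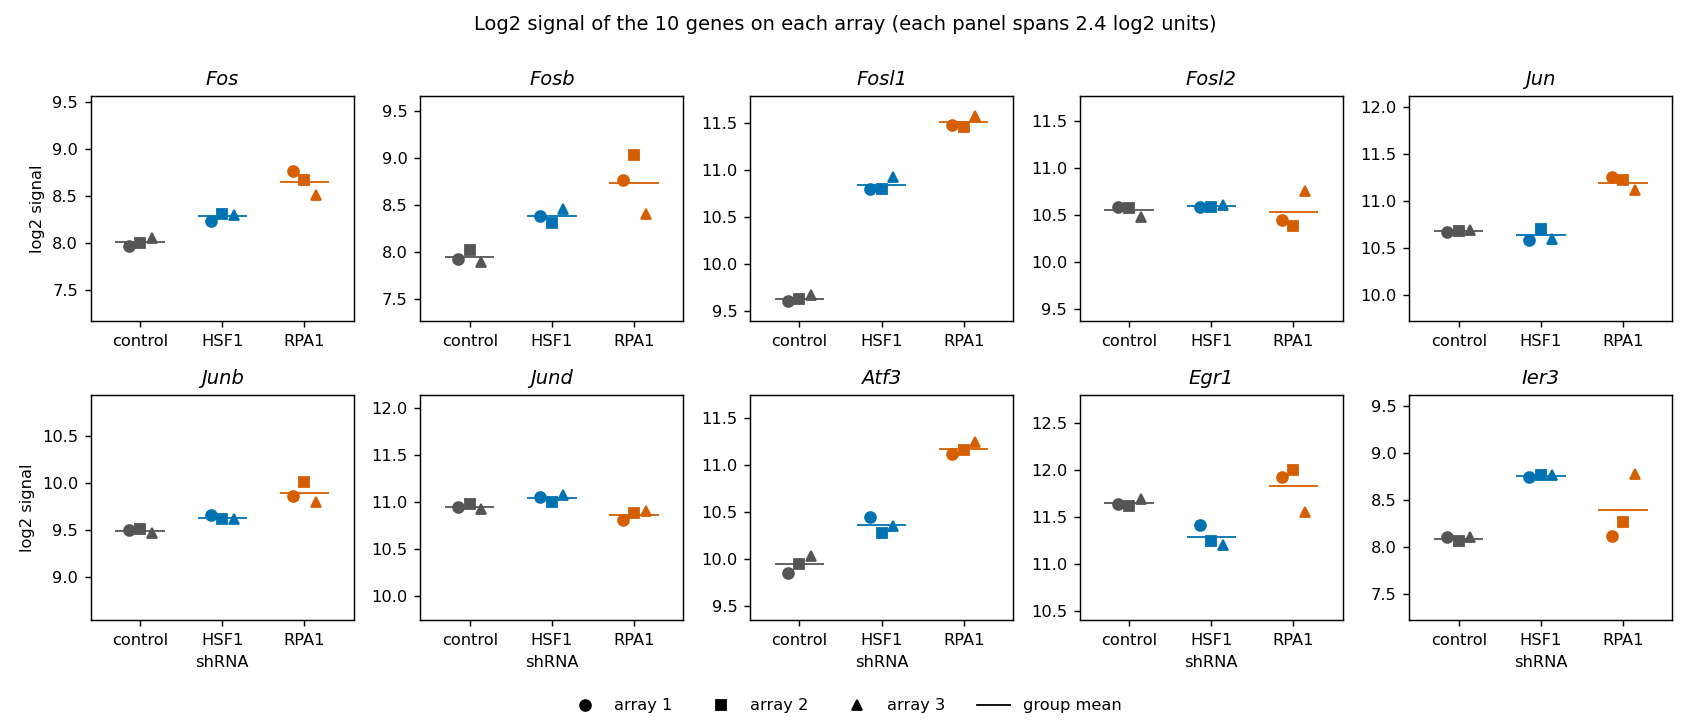
Log2 signal of each of the 10 genes on the 9 arrays, 1 point per array, grouped by control, HSF1 shRNA and RPA1 shRNA, with lines at the group means. Fosl1 rises from 9.63 in control to 10.84 and 11.51, while Egr1 reads 11.65, 11.29 and 11.83.

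Fosl1, which encodes FRA-1, a FOS family protein that lacks the strong activation domain of FOS and is itself induced by AP-1, had the largest difference of the 10 under each shRNA. It read 9.61, 9.63 and 9.67 in the control arrays, 10.80, 10.80 and 10.93 with HSF1 shRNA and 11.48, 11.46 and 11.58 with RPA1 shRNA. The 3 groups were separate and each was tight, with SDs of 0.03, 0.08 and 0.07. Fosl1 rose by 1.21 ± 0.06 under HSF1 shRNA (2.31-fold, limma adjusted p = 1.56e-05) and by 1.87 ± 0.06 under RPA1 shRNA (3.67-fold, 3.79e-07; SE, n = 3 per group). The RPA1 shRNA arrays were 0.67 ± 0.06 above the HSF1 shRNA arrays (limma adjusted p = 0.000118). Leaving out any 1 array kept the rise between 1.16 and 1.23 under HSF1 shRNA and between 1.84 and 1.90 under RPA1 shRNA.

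Fos, the founding member of the family and a gene whose transcript is short-lived, read 7.97, 8.00 and 8.06 in control, 8.24, 8.31 and 8.30 with HSF1 shRNA and 8.77, 8.67 and 8.51 with RPA1 shRNA. No array of one group overlapped another group, and all 9 lay near the signal of the median gene. The difference under HSF1 shRNA was 0.28 ± 0.07 (1.21-fold, limma adjusted p = 0.0217). That call was lost without HSF1 shRNA array 2 or 3 or control array 1 or 2, with limma adjusted p from 0.0691 to 0.0806, and after median scaling (0.0551) or quantile scaling (0.0668). Under RPA1 shRNA Fos rose by 0.64 ± 0.07 (1.56-fold, limma adjusted p = 0.00012), and it was 0.36 ± 0.07 above HSF1 shRNA (0.00427).

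Fosb, which encodes a FOS protein that accumulates as a truncated form under chronic stimulation, read 7.92, 8.02 and 7.89 in control, 8.38, 8.30 and 8.45 with HSF1 shRNA and 8.76, 9.03 and 8.40 with RPA1 shRNA. Both knockdowns lay wholly above the control, but RPA1 shRNA array 3 fell among the HSF1 shRNA arrays. Fosb rose by 0.78 ± 0.13 under RPA1 shRNA (1.72-fold, limma adjusted p = 0.00166). Under HSF1 shRNA the difference was 0.43 ± 0.13 with a 95% interval of 0.13 to 0.73 and did not pass (limma adjusted p = 0.0546). Without RPA1 shRNA array 3 the same 0.43 passed (0.00416), and the difference between the knockdowns went from 0.35 (0.0846) to 0.52 (0.0016). Without array 2 that difference was 0.20 and did not pass. The Fosb difference under HSF1 shRNA passed in 5 of 20 fits. Besides the fit without RPA1 shRNA array 3, these were without RPA1 shRNA array 2 (limma adjusted p = 0.0146) and with only the 6 arrays compared (0.0025). The others were with array weights (limma adjusted p = 0.00335) and with an intensity trend and robust prior (0.0467).

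Fosl2, which encodes FRA-2, the FOS family protein that often persists after the early wave, read 10.58, 10.57 and 10.48 in control, 10.59, 10.59 and 10.61 with HSF1 shRNA and 10.45, 10.38 and 10.76 with RPA1 shRNA. The groups sat close together, and RPA1 shRNA array 3 was the highest of the 9 while arrays 1 and 2 were the lowest. The differences were 0.05 ± 0.09 (95% interval -0.15 to 0.25, limma adjusted p = 0.747) and -0.01 ± 0.09 (-0.21 to 0.19, 0.94). Changes within these intervals could not be told from none with 3 arrays per group. Without array 3 the difference of RPA1 shRNA from control was -0.13 and did not pass (limma adjusted p = 0.0884). The difference of RPA1 shRNA from HSF1 shRNA was then -0.18 and passed (limma adjusted p = 0.0246).

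**Figure D2:**
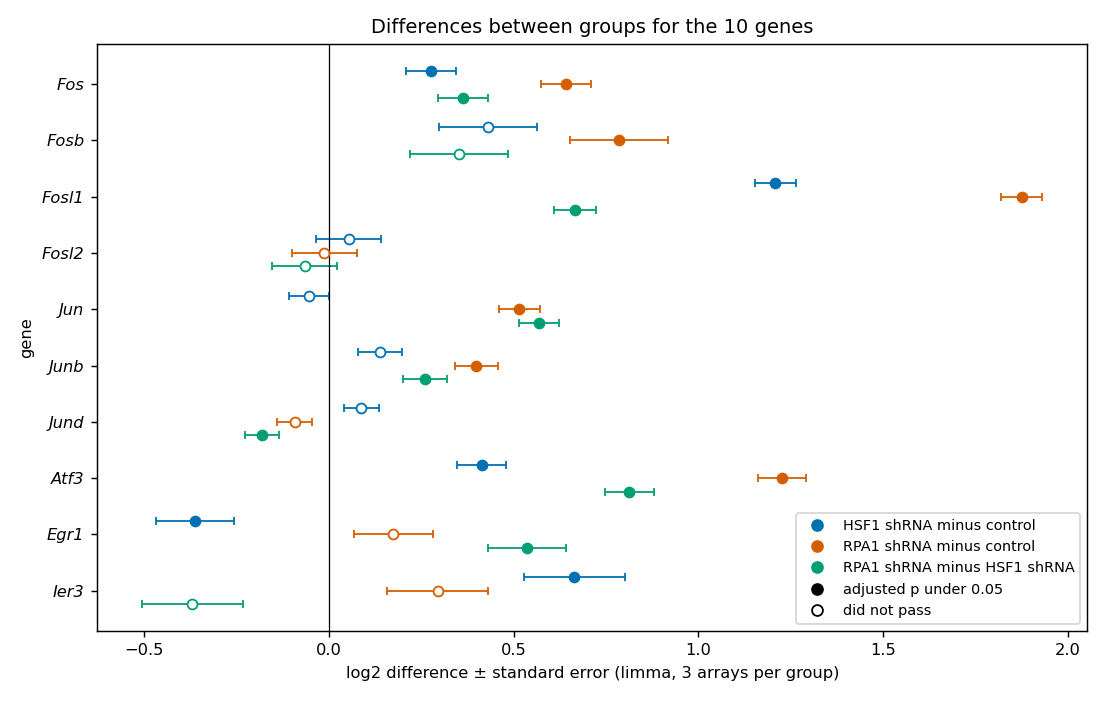
Log2 differences of the 10 genes with limma's standard errors as bars and called differences filled, for HSF1 shRNA and RPA1 shRNA against control and for RPA1 shRNA against HSF1 shRNA. Fosl1 has the largest differences from control, 1.21 and 1.87, and Egr1 is at -0.36 under HSF1 shRNA and 0.17 under RPA1 shRNA.

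Among the JUN genes, Jun, the partner that gives AP-1 most of its activating strength, read 10.67, 10.69 and 10.70 in control and 10.59, 10.71 and 10.60 with HSF1 shRNA. It read 11.26, 11.23 and 11.12 with RPA1 shRNA. The HSF1 shRNA and control arrays overlapped, and all RPA1 shRNA arrays lay above both. Jun rose by 0.52 ± 0.05 under RPA1 shRNA (1.43-fold, limma adjusted p = 0.000122) and was 0.57 ± 0.05 above HSF1 shRNA (0.000191). Under HSF1 shRNA it was at -0.05 ± 0.05, with a 95% interval of -0.18 to 0.07 (limma adjusted p = 0.58).

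Junb, whose protein activates fewer AP-1 targets than JUN and can oppose it, read 9.50, 9.51 and 9.47 in control, 9.66, 9.62 and 9.62 with HSF1 shRNA and 9.86, 10.01 and 9.80 with RPA1 shRNA. The groups did not overlap. Junb rose by 0.40 ± 0.06 under RPA1 shRNA (1.32-fold, limma adjusted p = 0.000771) and was 0.26 ± 0.06 above HSF1 shRNA (0.0108). Under HSF1 shRNA its 0.14 ± 0.06 did not pass (limma adjusted p = 0.154), but did when only the 6 arrays compared were fitted (0.0404) or arrays were weighted (0.0481).

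Jund, the JUN family gene that is expressed steadily rather than induced, read 10.95, 10.98 and 10.93 in control, 11.05, 11.00 and 11.07 with HSF1 shRNA and 10.81, 10.88 and 10.90 with RPA1 shRNA. HSF1 shRNA arrays were the highest and RPA1 shRNA arrays the lowest, over a narrow span. Against control the differences were 0.09 ± 0.05 (limma adjusted p = 0.258) and -0.09 ± 0.05 (0.176), and neither passed. RPA1 shRNA was at -0.18 ± 0.05 against HSF1 shRNA (limma adjusted p = 0.02). That call was lost when any 1 of HSF1 shRNA arrays 1 and 3 and RPA1 shRNA array 1 was left out (0.0562 to 0.0772), with only the 6 arrays compared (0.054), and when arrays were scaled to a common median (-0.14, 0.0746).

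Atf3, a stress-induced member of the ATF family that can dimerize with JUN proteins, read 9.85, 9.94 and 10.03 in control, 10.44, 10.27 and 10.35 with HSF1 shRNA and 11.11, 11.16 and 11.24 with RPA1 shRNA. The 3 groups were separate, with the RPA1 shRNA arrays farthest from the rest. Atf3 rose by 0.41 ± 0.07 under HSF1 shRNA (1.33-fold, limma adjusted p = 0.00309) and by 1.23 ± 0.07 under RPA1 shRNA (2.34-fold, 4.04e-06). RPA1 shRNA lay 0.81 ± 0.07 above HSF1 shRNA (1.76-fold, limma adjusted p = 9.34e-05). Leaving out any 1 array kept these differences between 0.37 and 0.46, between 1.18 and 1.27 and between 0.77 and 0.86.

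The 2 members outside the AP-1 dimers followed other patterns. Egr1, a zinc finger factor induced through serum response factor and the ternary complex factors, read 11.64, 11.62 and 11.70 in control, 11.42, 11.25 and 11.21 with HSF1 shRNA and 11.93, 12.00 and 11.56 with RPA1 shRNA. The HSF1 shRNA arrays lay below all others, while RPA1 shRNA arrays 1 and 2 lay above the control and array 3 below it. The log2 difference under HSF1 shRNA was -0.36 ± 0.11 (1.28-fold lower, limma adjusted p = 0.0456). That call was lost without any 1 of the control arrays, any 1 of the HSF1 shRNA arrays or RPA1 shRNA array 1, with limma adjusted p from 0.0521 to 0.147. Under RPA1 shRNA the difference of 0.17 ± 0.11 did not pass (limma adjusted p = 0.26), and without array 3 it was 0.31 and passed (0.0056). Without array 2 it was 0.09 and did not pass. Between the knockdowns Egr1 was 0.54 ± 0.11 higher with RPA1 shRNA (1.45-fold, limma adjusted p = 0.00565), and this call held in each of the 21 fits made.

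Ier3, an early response gene that encodes a short-lived regulator of cell survival and is not a transcription factor, read 8.11, 8.06 and 8.11 in control, 8.74, 8.77 and 8.77 with HSF1 shRNA and 8.12, 8.27 and 8.78 with RPA1 shRNA. The HSF1 shRNA arrays stood well above the control, and the RPA1 shRNA arrays ran from the control's level to that of HSF1 shRNA, with array 3 at the top. Ier3 rose by 0.66 ± 0.14 under HSF1 shRNA (1.58-fold, limma adjusted p = 0.0101). Under RPA1 shRNA the difference of 0.29 ± 0.14 did not pass (limma adjusted p = 0.14). It went to 0.43 without array 1, where it passed (0.0365), and to 0.10 without array 3. RPA1 shRNA against HSF1 shRNA was at -0.37 ± 0.14 (limma adjusted p = 0.0792) with all arrays and at -0.56 without array 3 (7.9e-05). Without array 1 it was -0.24 and did not pass.

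**Figure D3:**
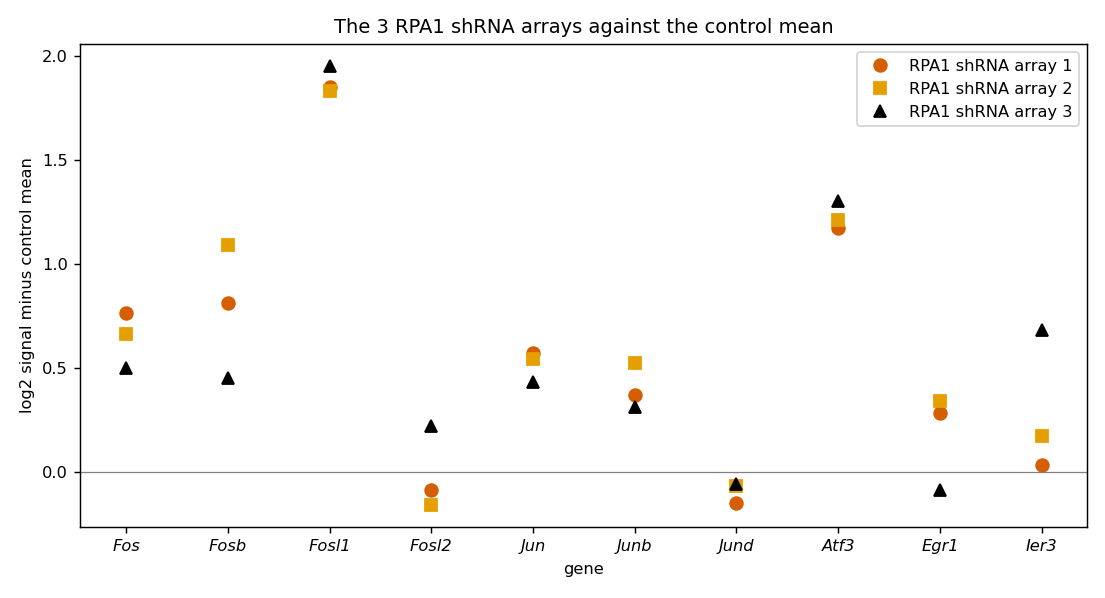
Log2 difference of each RPA1 shRNA array from the control mean for the 10 genes, 1 point per array, with array 3 as black triangles. Array 3 is nearer to 0 than arrays 1 and 2 for Fos, Fosb, Jun, Junb and Jund, on the other side of 0 for Egr1 and Fosl2, and farther from 0 than both for Fosl1 (1.95), Atf3 (1.30) and Ier3 (0.68).

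Likeness in pattern was measured for the 3 genes with the widest span of group means, as the root mean square difference from each other gene over the 9 arrays after both were centred on their control mean. Nearest to Fosl1 were Tnfsf18, the ligand of the receptor GITR (0.176), the RNA gene U90926 (0.179) and the histone gene H2bc4 (0.193). Tnfsf18 had log2 differences of 1.10 under HSF1 shRNA and 1.93 under RPA1 shRNA. Nearest to Atf3 were Plk2, a polo-like kinase (0.064), Tnfaip3, the ubiquitin-editing protein A20 (0.075), and Ccne1, cyclin E1 (0.084), and Ccne1 had differences of 0.37 and 1.28. Nearest to Fosb were the dehydratase gene Pcbd1 (0.071), the ethanolamine kinase gene Etnk1 (0.071) and Pgap6 (0.072). These neighbours were chosen for their likeness, so their differences are a description.

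Other partners of AP-1 dimers, from the ATF, BATF, JDP and MAF families, had calls in both directions. Of 15 tested of 16 listed, 2 rose and 4 fell under HSF1 shRNA (median -0.032, against 0.036 over all genes), and 3 rose and 3 fell under RPA1 shRNA (0.029, against 0.017). Shares over all genes were 9.89% higher and 6.21% lower under HSF1 shRNA, and 15.4% higher and 14.7% lower under RPA1 shRNA. The small MAF genes Maff and Mafk, whose proteins lack an activation domain, were among those that rose. Maff read 7.91, 8.04 and 8.00 in control, 8.79, 8.86 and 8.83 with HSF1 shRNA and 9.11, 9.23 and 9.26 with RPA1 shRNA. It rose by 0.84 ± 0.06 (limma adjusted p = 6.82e-05) and 1.22 ± 0.06 (2.71e-06), and Mafk by 0.79 ± 0.06 (0.000111) and 1.04 ± 0.06 (6.51e-06). Maf, the large MAF with an activation domain, was lower in all 6 knockdown arrays, at -0.64 ± 0.06 (limma adjusted p = 0.00028) and -0.51 ± 0.06 (0.000261). Atf2 fell by 0.45 ± 0.07 on the log2 scale under HSF1 shRNA (limma adjusted p = 0.0039), and Mafg rose by 0.48 ± 0.09 under RPA1 shRNA (0.00365).

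Of 40 other immediate early genes, 14 rose and 1 fell under HSF1 shRNA (median 0.156) and 23 rose and 5 fell under RPA1 shRNA (median 0.399). There 9.89 and 15.4% of all genes rose and 6.21 and 14.7% fell. Between the knockdowns 15 of the 40 were called higher and 9 lower with RPA1 shRNA (median 0.116), against 9.71 and 14.7% of all genes. Ptgs2, the inducible cyclooxygenase, read 9.45, 9.60 and 9.52 in control, 10.62, 10.61 and 10.66 with HSF1 shRNA and 10.83, 11.02 and 11.72 with RPA1 shRNA. It rose by 1.11 ± 0.18 (limma adjusted p = 0.00376) and 1.66 ± 0.18 (0.000146), with RPA1 shRNA array 3 the highest of the 9. Under HSF1 shRNA Hbegf, a ligand of the EGF receptor (0.94 ± 0.19, limma adjusted p = 0.0102), the kinase gene Sgk1 (0.82 ± 0.13, 0.00286) and the growth arrest gene Gadd45g (0.62 ± 0.13, 0.0104) rose as well. Hbegf (0.91 ± 0.19, limma adjusted p = 0.00599), Sgk1 (1.00 ± 0.13, 0.000355) and Gadd45g (0.68 ± 0.13, 0.003) were also called higher under RPA1 shRNA. Under RPA1 shRNA the antiproliferative gene Btg2 rose by 1.40 ± 0.06 (limma adjusted p = 2.31e-06) and Plk2 by 1.30 ± 0.05 (1.5e-06). Id3, an inhibitor of helix-loop-helix factors, was at -1.23 ± 0.07 (limma adjusted p = 5.55e-06). Plk2 (0.38 ± 0.05, limma adjusted p = 0.00156) and Id3 (-0.47 ± 0.07, 0.00258) were called in the same directions under HSF1 shRNA. Btg2 was not called there (0.0006, limma adjusted p = 0.998). Without RPA1 shRNA array 3 the genes called lower numbered 2 under HSF1 shRNA and 8 under RPA1 shRNA.

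**Figure D4:**
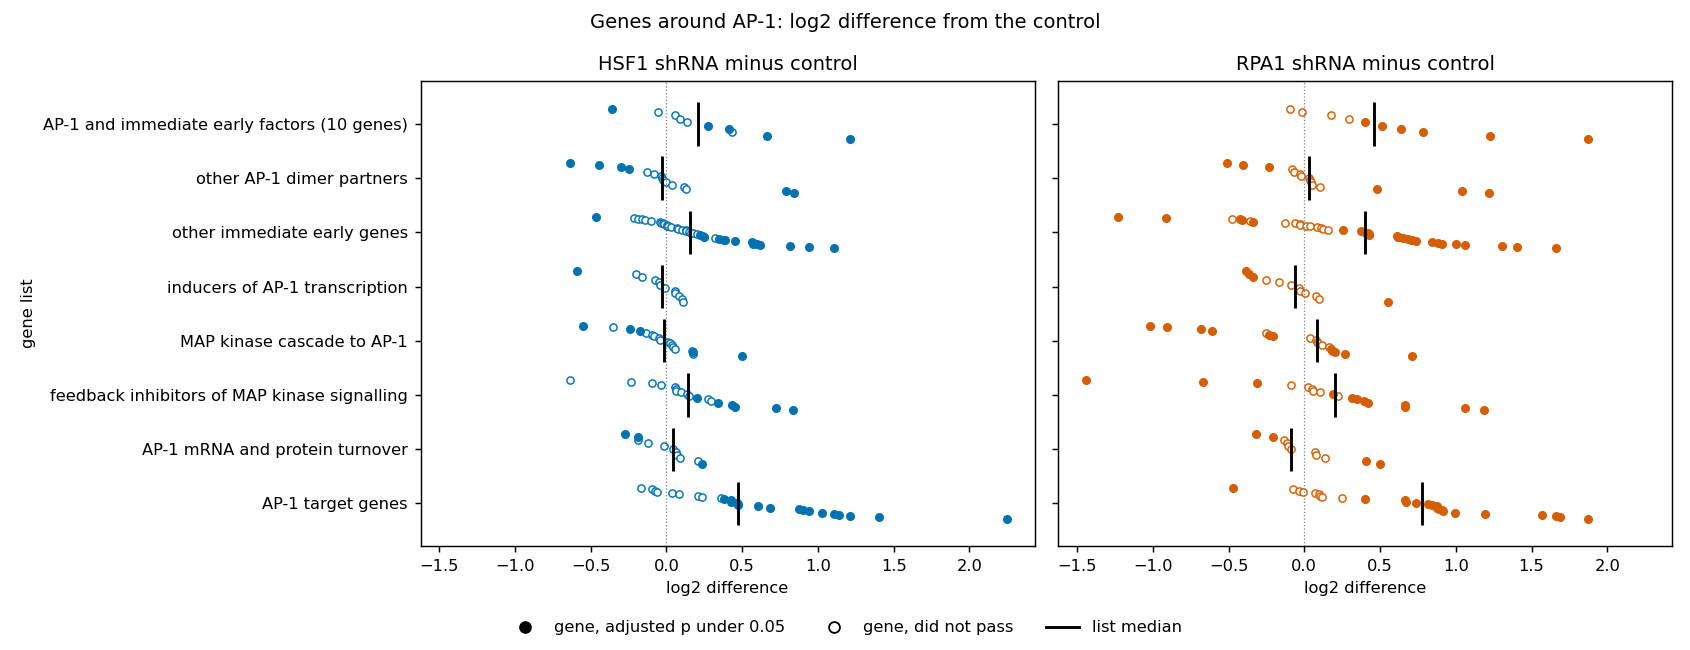
Log2 difference from control of every gene of the 10 and of each AP-1 related list, under HSF1 shRNA (left) and RPA1 shRNA (right), 1 point per gene, filled where called, with a bar at the list median. Among AP-1 target genes 17 of 26 are called higher under each shRNA, and among other immediate early genes 14 and 23 of 40.

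The factors that induce AP-1 genes (serum response factor, ternary complex factors, MRTFs and CREB) had calls near the share of all genes. Of 12 tested, 0 rose and 1 fell there by limma (0 higher and 2 lower at an unadjusted p under 0.05, median -0.027), and 1 rose and 3 fell under RPA1 shRNA (median -0.061), where 16.1 and 30.1% of all genes were called. Mrtfb, a coactivator of serum response factor, was at -0.59 ± 0.10 under HSF1 shRNA (limma adjusted p = 0.00388). Srf itself read 10.69, 10.71 and 10.65 in control and 11.28, 11.38 and 11.04 with RPA1 shRNA, and rose there by 0.55 ± 0.08 (limma adjusted p = 0.000675). Stat3 (-0.39 ± 0.05, limma adjusted p = 0.000457), the ternary complex factor gene Elk3 (-0.36 ± 0.09, 0.00944) and Creb1 (-0.34 ± 0.07, 0.00435) fell under RPA1 shRNA. One more gene was called lower under HSF1 shRNA without HSF1 shRNA array 1 or RPA1 shRNA array 3 (2 in all), and 1 more higher under RPA1 shRNA without array 3 (2 in all).

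In the MAP kinase cascade that leads to AP-1, 2 of 18 tested genes rose and 3 fell under HSF1 shRNA (median -0.015), and 4 rose and 6 fell under RPA1 shRNA (median 0.081). Over all genes 9.89% rose and 6.21% fell under HSF1 shRNA, and 15.4% rose and 14.7% fell under RPA1 shRNA. The list named 25 genes. Map2k3 and Map2k6, both kinases that activate p38, went in opposite directions under RPA1 shRNA. Map2k3 read 10.75, 10.76 and 10.66 in control and 11.43, 11.55 and 11.33 with RPA1 shRNA, a rise of 0.71 ± 0.07 (limma adjusted p = 5.87e-05). Map2k6 read 8.67, 8.80 and 8.52 against 7.85, 7.57 and 7.86, a difference of -0.90 ± 0.09 (limma adjusted p = 0.000101). Map3k5, the stress kinase ASK1, was at -1.02 ± 0.17 (limma adjusted p = 0.00139), with array 3 (7.91) nearer to the control than arrays 1 and 2 (7.11 and 7.38). Rps6ka5, which encodes the nuclear kinase MSK1, was lower in both knockdowns, at -0.55 ± 0.08 (limma adjusted p = 0.00178) and -0.68 ± 0.08 (0.000191). Under HSF1 shRNA Mapk10 (JNK3) rose by 0.50 ± 0.10 (limma adjusted p = 0.00827). It read 6.66, 6.47 and 6.34 in control and 7.09, 6.93 and 6.94 with HSF1 shRNA, all below the median gene (8.39). Map2k3 (-0.24 ± 0.07, limma adjusted p = 0.0351) and Nras (-0.18 ± 0.05, 0.0496) passed narrowly under HSF1 shRNA. Map2k3 and Nras there lost the call without any 1 of the control or HSF1 shRNA arrays, and with RPA1 shRNA array 1 left out (for Nras also array 2). Of this list 1 gene was called lower under HSF1 shRNA without any 1 of those 7 arrays. The genes called higher fell to 1 under HSF1 shRNA without HSF1 shRNA array 1 or 3, RPA1 shRNA array 1 or 2 or control array 1 or 2. Under RPA1 shRNA they fell to 1 without array 1 or control array 3 and to 2 without array 2.

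Of 18 feedback inhibitors of MAP kinase signalling, 6 rose and 0 fell by limma under HSF1 shRNA (1 lower at an unadjusted p under 0.05, median 0.143), and 9 rose and 3 fell under RPA1 shRNA (median 0.205). Of all genes 9.89 and 15.4% rose and 6.21 and 14.7% fell. Between the knockdowns 5 of the 18 were called higher and 3 lower with RPA1 shRNA (median -0.015), against 9.71 and 14.7% of all genes. Dusp1, a phosphatase that switches off p38 and JNK and is itself an early gene, read 10.53, 10.49 and 10.35 in control, 11.30, 11.19 and 11.40 with HSF1 shRNA and 11.40, 11.56 and 11.97 with RPA1 shRNA. It rose by 0.83 ± 0.13 (limma adjusted p = 0.00263) and 1.18 ± 0.13 (0.000137). Dusp8, a phosphatase of stress kinases, rose by 0.43 ± 0.07 (limma adjusted p = 0.00434) and 1.06 ± 0.07 (1.41e-05). Dusp6, a phosphatase of ERK, rose by 0.72 ± 0.09 under HSF1 shRNA (limma adjusted p = 0.000894) and by 0.67 ± 0.09 under RPA1 shRNA (0.000453). Dusp14 rose under HSF1 shRNA by 0.46 ± 0.12 (limma adjusted p = 0.0257), a call lost without HSF1 shRNA array 1 or 3 or any 1 of the control arrays. Under RPA1 shRNA its 0.22 ± 0.12 did not pass (limma adjusted p = 0.188), and without array 3 it was 0.07. The sprouty genes, inhibitors of growth factor signalling, split under RPA1 shRNA. Spry3 (-1.44 ± 0.21, limma adjusted p = 0.000669) and Spry1 (-0.67 ± 0.13, 0.00332) fell, with array 3 nearest to the control for both, while Spry2 (0.42 ± 0.07, 0.00188) and Spry4 (0.35 ± 0.07, 0.0032) rose. Without HSF1 shRNA array 3 or control array 3 the genes called higher under HSF1 shRNA were 3, and without RPA1 shRNA array 2 or 3 the genes called lower were 1 or 2.

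The list of AP-1 turnover held proteins that bind its short-lived messengers, some to destroy and some to stabilize them, and factors of JUN protein degradation. Of 11 tested, 1 rose and 2 fell under HSF1 shRNA (median 0.046), and 2 rose and 2 fell under RPA1 shRNA (median -0.088), against 16.1 and 30.1% of all genes called in either direction. Under RPA1 shRNA the ubiquitin ligase gene Fbxw7, whose product targets JUN, rose by 0.50 ± 0.06 (limma adjusted p = 0.000356). Zfp36, the tristetraprolin gene, rose by 0.41 ± 0.06 (limma adjusted p = 0.000763). Itch, a second ligase of JUN proteins, fell by 0.32 ± 0.05 on the log2 scale (limma adjusted p = 0.000747), and Zfp36l2 by 0.21 ± 0.05 (0.00793). The calls under HSF1 shRNA were Fbxw7 (0.23 ± 0.06, limma adjusted p = 0.033), Zfp36l1 (-0.27 ± 0.06, 0.0159) and Itch (-0.19 ± 0.05, 0.021). The call of Fbxw7 was lost without any 1 of the control or HSF1 shRNA arrays. Zfp36l1 lost it without HSF1 shRNA array 2 or 3 or control array 2, and Itch without these or control array 1 or 3. Without RPA1 shRNA array 3, 2 genes of the list were called higher under HSF1 shRNA.

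Genes known as AP-1 targets were mostly called higher under both shRNAs. Of 26 tested of 30 listed, 17 rose and 0 fell by limma under HSF1 shRNA (0 lower at an unadjusted p under 0.05, median 0.470), and 17 rose and 1 fell under RPA1 shRNA (median 0.776). Of all genes 9.89 and 15.4% rose and 6.21 and 14.7% fell. These counts include Fosl1, and Ptgs2 and Hbegf also stand in the list of immediate early genes. Set directly against HSF1 shRNA, RPA1 shRNA gave 7 higher and 3 lower calls among the 26, and 16 were not called (median 0.037). Over all genes 9.71% were called higher and 14.7% lower in that comparison (median -0.02). The interleukin gene Il6 read 6.32, 6.69 and 6.86 in control, 8.97, 8.94 and 8.70 with HSF1 shRNA and 8.16, 7.58 and 9.21 with RPA1 shRNA. All knockdown arrays were above all control arrays, and the RPA1 shRNA arrays were the most scattered, with array 3 the highest. Il6 rose by 2.25 ± 0.33 (limma adjusted p = 0.00226) and 1.69 ± 0.33 (0.00393). The collagenase gene Mmp13 rose under HSF1 shRNA by 1.40 ± 0.11 (limma adjusted p = 0.000124) and Plaur, the urokinase receptor gene, by 1.14 ± 0.16 (0.00159). All RPA1 shRNA arrays also lay above all control arrays for both genes. Mmp13 read 7.73, 8.05 and 8.28 there against 7.31, 7.27 and 7.27 in control. Plaur read 10.19, 10.41 and 10.91 against 9.15, 9.48 and 9.32. Csf2, the gene of the cytokine GM-CSF, read 6.59, 6.93 and 6.83 in control and 8.15, 8.52 and 8.39 with RPA1 shRNA, a rise of 1.57 ± 0.10 (limma adjusted p = 1.08e-05). With HSF1 shRNA Csf2 read 7.28, 7.23 and 7.27, also above all control arrays.

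Some target genes were called under one shRNA only, and were named after their values had been seen. Vegfd rose by 0.87 ± 0.09 under HSF1 shRNA (limma adjusted p = 0.000388), stood at 0.12 ± 0.09 under RPA1 shRNA (0.401), and was lower by the direct comparison of the knockdowns (-0.76 ± 0.09, 0.000545). Hmox1, heme oxygenase, rose by 1.00 ± 0.15 under RPA1 shRNA (limma adjusted p = 0.000849) and was 0.63 ± 0.15 above HSF1 shRNA (0.013). Under HSF1 shRNA its 0.36 ± 0.15 did not pass with all arrays (limma adjusted p = 0.143) and passed without RPA1 shRNA array 3 (0.0045). Ezr was the 1 target called lower under RPA1 shRNA (-0.47 ± 0.10, limma adjusted p = 0.00543), and the direct comparison of the knockdowns did not pass (-0.30 ± 0.10, 0.0508). Without RPA1 shRNA array 3 Ezr was also the 1 called lower under HSF1 shRNA (-0.17, limma adjusted p = 0.0489).

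**Figure D5:**
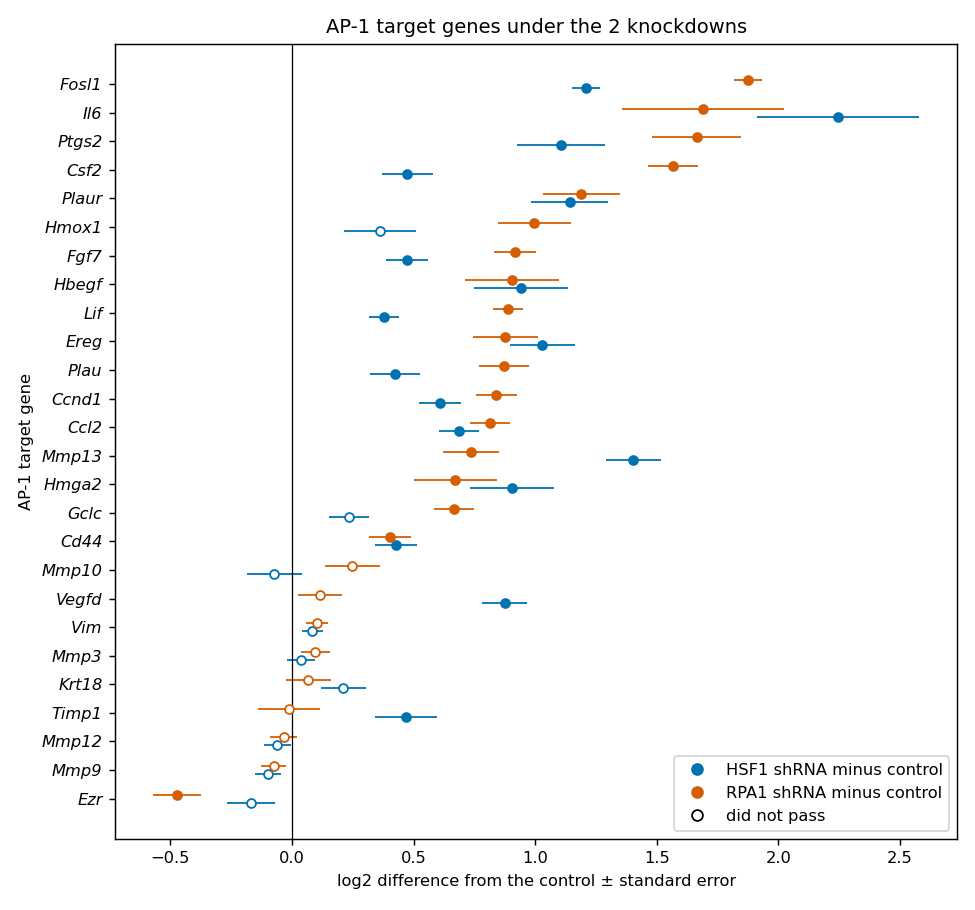
Log2 differences of the 26 AP-1 target genes under HSF1 shRNA and RPA1 shRNA against control, with standard errors as bars and called genes filled. Il6 is at 2.25 and 1.69, and Ezr is the 1 gene called lower, at -0.47 under RPA1 shRNA.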

How the data were processed

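RNA of 9 samples was measured on Affymetrix arrays. The deposited values, 1 per probe set and array, were made with RMA in Partek 6.5, per the submitters' processing notes. The notes used here give no scale; log2 was inferred from the range of the deposited values. Of 35557 rows, 21789 had 1 gene symbol in the platform annotation and 1621 had several; only the former were used. For 999 genes with more rows the row with the highest mean was kept.

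With R 4.3.3 and limma 3.58.1, the 9 arrays were fitted together with a mean for each group (6 residual and 3.51 prior degrees of freedom). The 3 contrasts were moderated by empirical Bayes, tested two-sided, and adjusted after Benjamini and Hochberg over all 19938 genes. A gene was called, and said to rise or fall, at an adjusted p under 0.05. An exact test of 3 against 3 cannot go below 0.1. Errors are SE for differences and SD for levels. The number of arrays limits the precision. On simulated data for HSF1 shRNA against control with changes of 1.25, 1.5, 2 and 3-fold, 54, 92, 98 and 100% were found, with 12 false calls of 184. For RPA1 shRNA against control these were 42, 96, 100 and 100%, with 14 false of 183. The simulated data had 50 of 19938 genes changed at each fold, and normal noise with the same spread in all groups. In the measured data 16.1 and 30.1% of genes were called, and RPA1 shRNA array 3 differed from its group. These rates therefore need not hold for the measured data.

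Members and lists were chosen with earlier results of these data known. All 10 members were named, with Rpa1 as a check, up to 4 called genes with the largest difference per list and knockdown whose arrays did not overlap the control, and the 3 genes most like each of 3 members. Vegfd, Hmox1, Ezr, Spry2 and Spry4 were chosen after their values were seen. Promoter windows came from RefSeq (GRCm38.p6). Same-numbered arrays of different groups had deviations correlated between -0.16 and 0.09, so numbers were not taken to pair samples. Alternatives covered scaling, array weights, the prior, genes above the median, the arrays fitted, a replicate block and leaving out each array.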

Additional observations from a re-analysis of the deposited data

How the results depend on the processing

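Of the differences of the 10 genes in 3 comparisons, 303 of 324 values under 11 other settings and 244 of 270 values with 1 array left out kept direction and side of the threshold. With array weights 5313, 9065 and 7926 genes were called under HSF1 shRNA, under RPA1 shRNA and between the knockdowns. Without limma's moderation 2 of the 10 were called under HSF1 shRNA. Leaving out 1 array gave 1953 to 4696, 4642 to 7245 and 3228 to 6539 genes, and 3 to 6, 6 to 7 and 6 to 10 of the 10 genes; the lowest gene count between the knockdowns came without RPA1 shRNA array 1, and counts under HSF1 shRNA over 1.5 times lower came without HSF1 shRNA array 3 (2041) and control arrays 1 (2023) and 3 (1953). Fosl2 changed sign under RPA1 shRNA with quantile scaling (0.002) and with 1 array left out (-0.127 to 0.063), and between the knockdowns (-0.181 to 0.010). With the replicate number as a block 2799, 5692 and 4414 genes and 4, 6 and 7 of the 10 were called; the call lost was Egr1 under HSF1 shRNA (-0.361, limma adjusted p = 0.0501), and no other call of the 10 changed. Of 560 list counts 490 stayed within 1.5 times, and of 1545 differences of other named genes 0 changed sign, 78 lost a call and 11 gained one.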
